A study of Mus musculus with 13 samples.

Results

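Collagen genes were followed across 2 kinds of mouse glioblastoma and normal brain. They were chosen by name: every protein-coding mouse gene of GENCODE M21 whose symbol has the form Col, a type number, the letter a and a chain number. This gave 44 of the 55416 genes counted, and 17 of the 44 had enough reads to be tested, among 7722 tested genes. The values are reads counted per gene from polyadenylated RNA of 13 tissue samples. PDGFB tumors (n = 5) arose after a lentivirus carrying PDGFB, a platelet-derived growth factor, and a hairpin RNA against p53 was put into the motor cortex. RAS tumors (n = 5) arose the same way from a lentivirus carrying HRasV12, an activated Ras protein, and a hairpin RNA against p53. Both kinds grew in CNP-Cre mice, whose Cre recombinase is driven by Cnp, a gene of oligodendrocytes. They were taken as GFP+ tissue at the end point, from 5 mice per group. The third group is normal brain tissue with the genotype label WT (n = 3), with neither virus named. No brain region is given for it, its titles mark both sexes, and samples may share animals. The title of normal brain 3 starts with MBT and those of the other 2 with NBT; it was placed by its tissue label, and results that turn on it are given without it as well. A protocol line speaks of normal tissue trimmed off tumors, without saying whether these samples are that tissue. Tumor pieces can hold vessels and immune cells, so a higher value can mean more cells of a type or more RNA per cell, and these cannot be told apart. P-values measure the spread among these samples.

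Collagens are secreted proteins whose chains wind into a triple helix. Fibrillar collagens such as types I, III, V and XI form the cables of connective tissue, type IV forms the sheet of basement membranes, and type VI forms beaded filaments. The FACIT collagens sit on the surface of fibrils, and the multiplexins, types XV and XVIII, lie in or beside basement membranes. Healthy brain tissue is poor in fibrillar collagen, which lies mainly in the meninges and around larger vessels, while type IV surrounds brain vessels of all sizes.

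The libraries held 529162 to 643055 reads in genes (median 608897), which is 4.24% to 4.75% of their uniquely mapped reads. A small set of genes, 17.1%, has an exon that lies over an exon of the other strand, and this set took 84.8% of the counted reads, at 187 reads per kb of exon against 12.5 for the rest. Between 95.2% and 95.7% of the uniquely mapped reads of a library were counted under no gene. Whether the count used strand, or which one, is not stated and was not tested. Reads of a gene and of its partner on the other strand therefore cannot be told apart, and a gene name here means the reads deposited under it. Few reads under a collagen gene need not mean little RNA of that gene. Of the 44 collagen genes, 34 have no exon on the other strand. The other 10 hold 34.8% of all collagen reads; 5 of them were tested and are described with their partners. RAS tumor 2 stood apart from its group in a principal component analysis of all tested genes, at −11.2 on the first component against −53.3 to −71.4 for the other 4 RAS tumors. Compared with scaling by library totals, the TMM scale used here lowers the median log2 fold change of all genes by 0.23 for PDGFB tumors over normal brain, by 0.09 for RAS tumors over normal brain and by 0.14 for PDGFB over RAS tumors.

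Collagen reads were few but differed widely between groups. All 44 genes together had 245, 448, 264, 253 and 239 reads in the 5 PDGFB tumors, 620, 345, 419, 428 and 887 in the 5 RAS tumors and 68, 68 and 79 in the 3 normal brains. In CPM, reads scaled to a common total of tested genes, the sum averaged 457 ± 135 over PDGFB tumors, 938 ± 384 over RAS tumors and 143 ± 8.36 over normal brains (SD, n = 5, 5 and 3). Every tumor lay above every normal brain. The tumor groups overlapped, since PDGFB tumor 2 reached 696 CPM and RAS tumor 2 had 577 CPM.

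**Figure D1:**
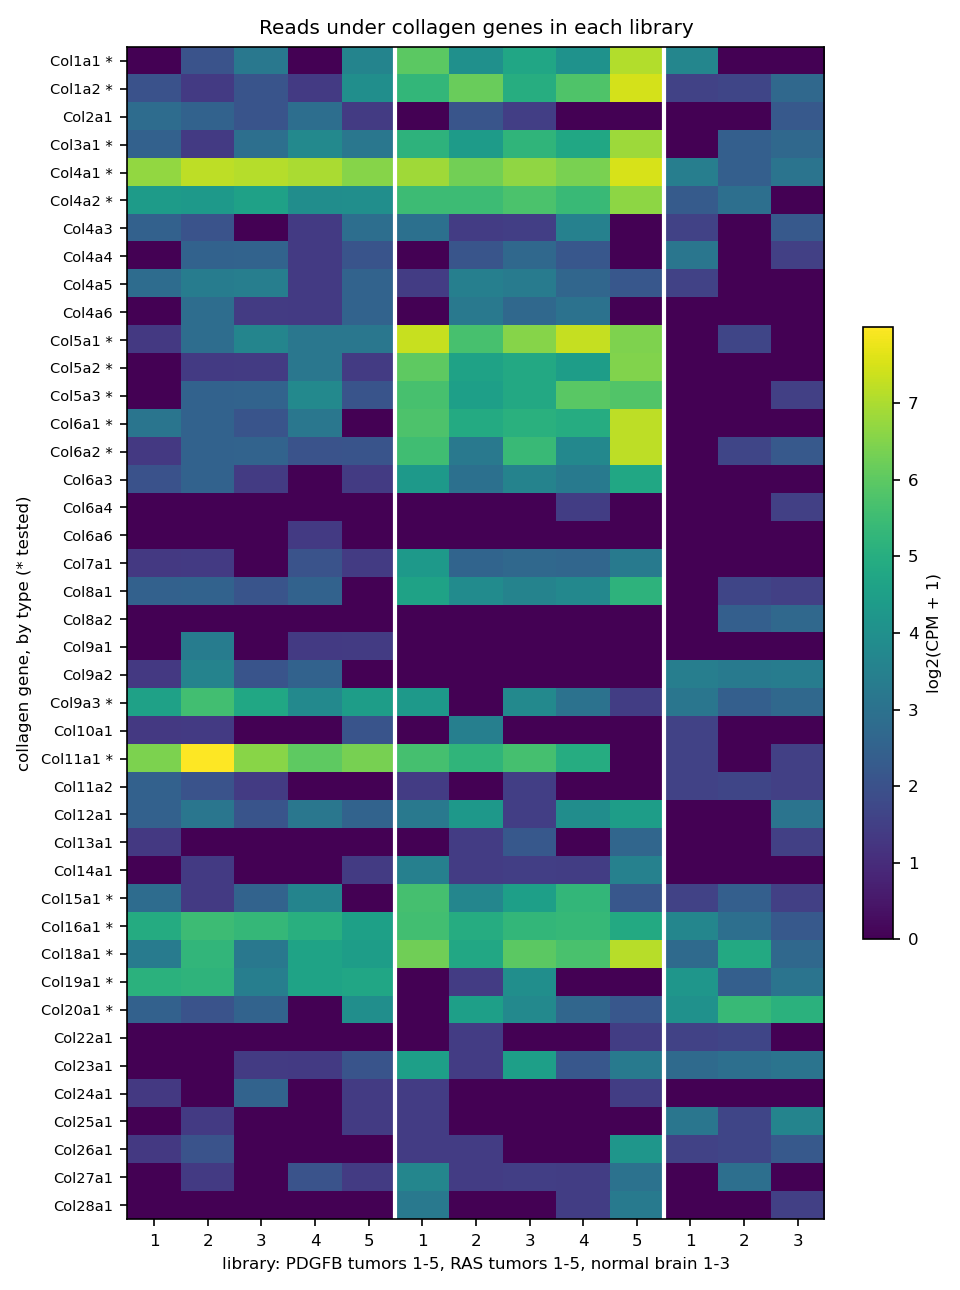
Level of each collagen gene in every library, as log2(CPM + 1), with 1 line per gene in order of collagen type and 1 column per library. An asterisk marks the 17 tested genes, and Col6a5 and Col17a1, which had no read, are not drawn. The bright block in the RAS columns covers types I, III, V and VI, Col4a1 is bright in all 10 tumors, and Col11a1 is brightest in PDGFB tumor 2.

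Genes were tested with edgeR's quasi-likelihood test, with p-values adjusted by Benjamini-Hochberg over all 7722 genes and a call at an adjusted p under 0.05. Between PDGFB tumors and normal brain, 6 of the 17 tested collagen genes were higher, 1 was lower and 10 did not pass, where 20.2% of all tested genes were called higher and 25.1% lower. The 2 groups did not overlap for 5 collagen genes on the higher side and 1 on the lower side, where the shares of all tested genes were 22.5% and 28.1%. Between RAS tumors and normal brain, 14 were higher, 1 was lower and 2 did not pass, where 26.9% of all genes were called higher and 29.3% lower. Those groups did not overlap for 11 collagen genes, all higher in RAS tumors, where the shares of all genes were 24.0% on that side and 28.5% on the lower side. Between PDGFB and RAS tumors, 3 were higher in PDGFB tumors, 11 were lower and 3 did not pass, where 14.6% of all genes were called higher and 17.4% lower. There the groups did not overlap for 1 gene on the higher side and 9 on the lower side, where the shares of all genes were 8.84% and 10.9%.

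The median log2 fold change of the 17 genes was 2.08 for PDGFB tumors over normal brain, or 1.25 with the genes that had no read in normal brain at their lower bound. It was 3.90 for RAS tumors over normal brain, with or without the bounds, and −2.35 for PDGFB over RAS tumors. The medians of all tested genes were −0.002, 0.016 and 0.026. The other 27 collagen genes had too few reads to test, so these counts speak only for genes with enough reads in at least some samples. Col1a1, Col1a2, Col3a1, Col5a1, Col5a2, Col5a3, Col6a1, Col6a2 and Col15a1 passed the filter only through RAS tumors. None of them reached 10 reads in a PDGFB tumor or a normal brain, and Col5a2 and Col6a1 had no read in normal brain. Col9a3 and Col19a1 passed through PDGFB tumors. The filter thus kept these genes for a high value in 1 tumor group. The shares and medians above, above all those that involve RAS tumors, depend on them. Both tumor groups were compared with the same 3 normal brains. Col4a1, Col4a2, Col5a1, Col11a1 and Col16a1 were called higher in both tumor types than in normal brain. A further 9 genes, Col1a1, Col1a2, Col3a1, Col5a2, Col5a3, Col6a1, Col6a2, Col15a1 and Col18a1, were called higher in RAS tumors and were not called in PDGFB tumors. All 9 were called lower in PDGFB than in RAS tumors by the direct test. All but Col18a1 are among the genes kept only through RAS tumors.

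**Figure D2:**
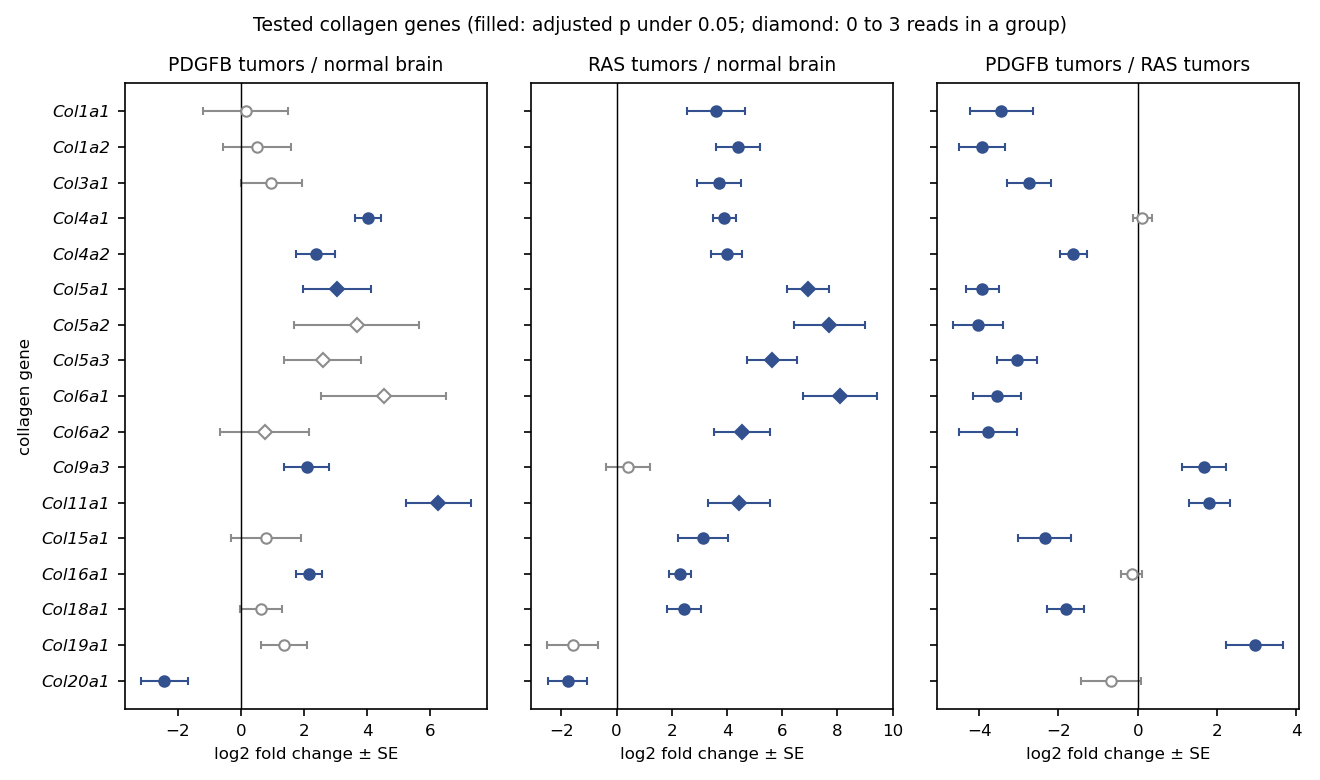
Log2 fold change of each tested collagen gene, with its standard error, for PDGFB tumors over normal brain, RAS tumors over normal brain and PDGFB over RAS tumors. Filled points passed an adjusted p of 0.05, and diamonds mark comparisons in which a group held 0 to 3 reads, where the fitted size depends on the prior count. In the right panel 11 filled points lie left of 0, and those of Col9a3, Col11a1 and Col19a1 lie right of it.

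Col1a1 and Col1a2 encode the chains of type I collagen, the main fibril of skin, bone and tendon, and were highest in RAS tumors. Col1a1 (ENSMUSG00000001506, chr11:94936224-94953042 on GRCm38) had 0, 2, 5, 0 and 7 reads in the PDGFB tumors, 37, 9, 14, 9 and 76 in the RAS tumors and 6, 0 and 0 in the normal brains. Col1a2 (ENSMUSG00000029661, chr6:4504814-4541544) had 2, 1, 2, 1 and 9 reads in the PDGFB tumors, 23, 42, 17, 31 and 102 in the RAS tumors and 1, 1 and 3 in the normal brains. RAS tumor 5 was the highest library for both, and each RAS tumor exceeded each PDGFB tumor and each normal brain. PDGFB tumors and normal brain overlapped, with log2 fold changes of 0.15 (adjusted p = 0.935) for Col1a1 and 0.50 (adjusted p = 0.730) for Col1a2. Col1a1 was 12.1-fold higher in RAS tumors than in normal brain (fitted log2 change 3.60 ± 1.05 SE, adjusted p = 0.00738), and Col1a2 was 21.3-fold higher (4.41 ± 0.80 SE, adjusted p = 0.000169; 5.11 without normal brain 3). The size of the Col1a1 change rests on normal brain 1, which held all 6 normal reads. Without it normal brain held no read, and the fitted log2 value of 7.88 depends on the prior count. In PDGFB tumors Col1a1 was 10.9-fold lower than in RAS tumors (−3.44 ± 0.80 SE, adjusted p = 0.00346; −4.08 without PDGFB tumor 5). Col1a2 was 15.1-fold lower there (−3.92 ± 0.58 SE, adjusted p = 8.77e-05), and its log2 value was −4.86 without PDGFB tumor 5 and −3.30 without RAS tumor 5.

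Col3a1 (ENSMUSG00000026043, chr1:45311538-45349706), the chain of type III collagen of vessel walls and other stretchable tissue, had the same order of groups. It had 3, 1, 4, 8 and 5 reads in the PDGFB tumors, 21, 12, 20, 15 and 64 in the RAS tumors and 0, 2 and 3 in the normal brains. RAS tumor 5 was again the highest library, and no RAS tumor overlapped another group. The log2 fold change of PDGFB tumors over normal brain was 0.96 (adjusted p = 0.433). Col3a1 was 13.1-fold higher in RAS tumors than in normal brain (3.71 ± 0.78 SE, adjusted p = 0.000647; 4.41 without normal brain 3). It was 6.74-fold lower in PDGFB than in RAS tumors (−2.75 ± 0.55 SE, adjusted p = 0.00101; −2.13 without RAS tumor 5).

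**Figure D3:**
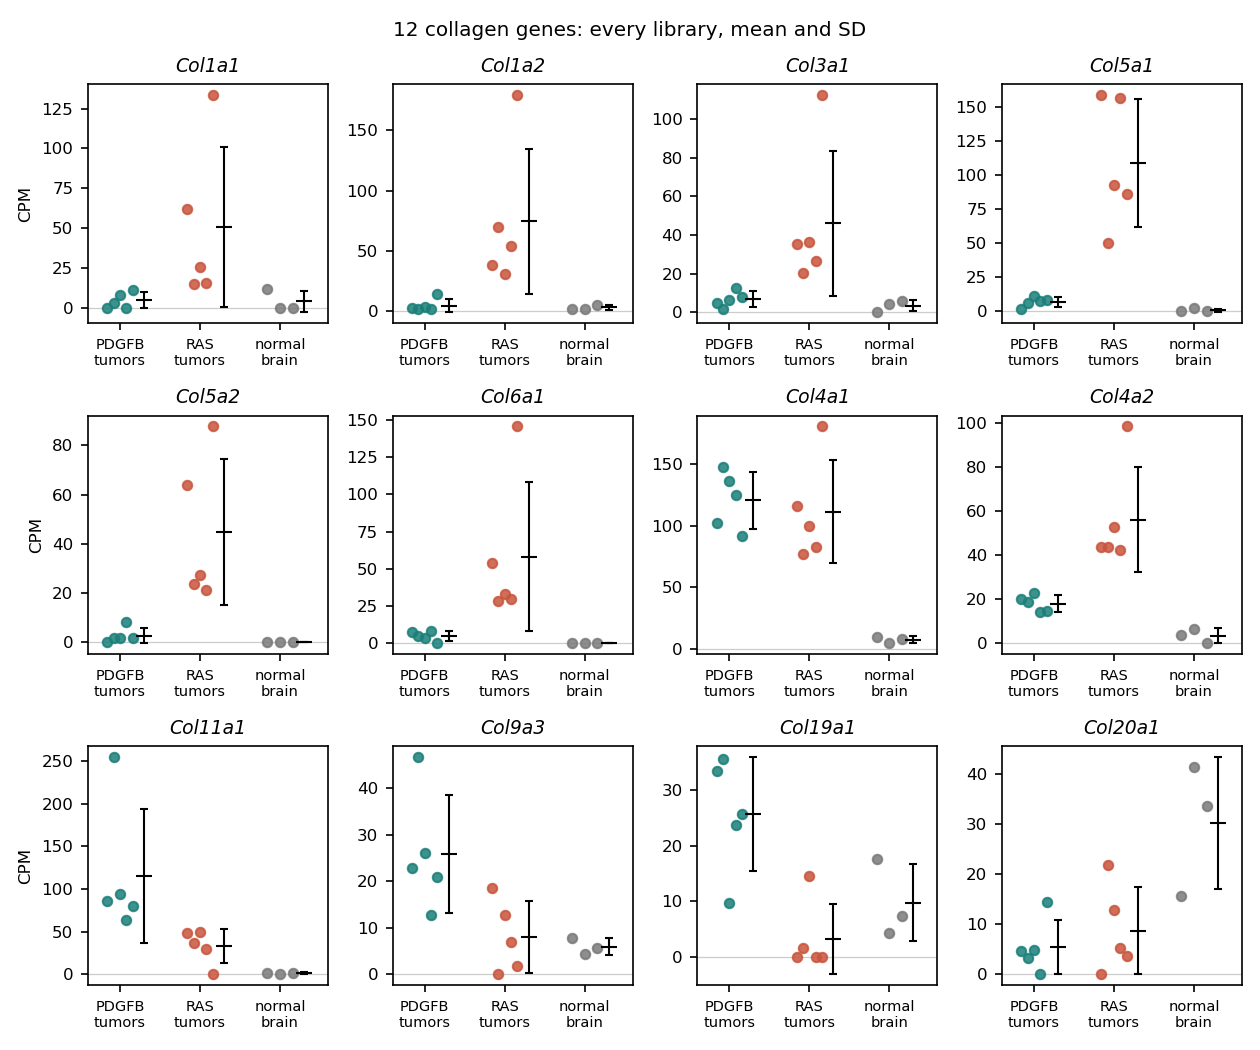
CPM of 12 collagen genes in every library, with each point 1 library and the bar beside the points the mean and SD of the group (n = 5 PDGFB tumors, 5 RAS tumors and 3 normal brains). Axes differ between panels. In the panels of Col1a1, Col1a2, Col3a1, Col5a1, Col5a2 and Col6a1 each RAS tumor lies above all other libraries, while Col4a1 is high in all 10 tumors and Col11a1 is lower in each RAS tumor than in each PDGFB tumor.

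Type V collagen starts and narrows fibrils of type I, and its 3 chains were all lower in PDGFB than in RAS tumors. Col5a1 (ENSMUSG00000026837, chr2:27886425-28039514) had 1, 4, 7, 5 and 5 reads in the PDGFB tumors, 94, 30, 51, 89 and 49 in the RAS tumors and 0, 1 and 0 in the normal brains. Col5a2 (ENSMUSG00000026042, chr1:45374321-45503282) had 0, 1, 1, 5 and 1 reads in PDGFB tumors, 38, 14, 15, 12 and 50 in RAS tumors and none in the 3 normal brains. Col5a3 (ENSMUSG00000004098, chr9:20770050-20815067) had 0, 3, 3, 8 and 2 reads in the PDGFB tumors, 30, 13, 15, 35 and 32 in the RAS tumors and 0, 0 and 1 in the normal brains. For each chain every RAS tumor exceeded every other library. In RAS tumors over normal brain the ratio of counts was 164 for Col5a1 (95% interval 29.2 to 6495, adjusted p = 1.59e-06) and 65.5 for Col5a3 (11.5 to 2606, adjusted p = 6.22e-05), and Col5a2 was at least 22.5-fold higher (adjusted p = 0.000121). Normal brain 2 held the normal read of Col5a1 and normal brain 3 that of Col5a3. Without that library the fitted log2 values were 8.98 and 7.68, against 6.95 and 5.64 with all libraries. These 2 larger sizes depend on the prior count, since no normal read is left. The intervals and bounds cover counting error only, and a bound takes 3 reads over the group without reads. Col5a1 was 15.2-fold lower in PDGFB than in RAS tumors (log2 fold change −3.92 ± 0.42 SE, adjusted p = 3.39e-06), Col5a2 was 16.4-fold lower (−4.03 ± 0.63 SE, adjusted p = 0.000215) and Col5a3 was 8.27-fold lower (−3.05 ± 0.51 SE, adjusted p = 0.000252). Without PDGFB tumor 4, which held 5 of the 8 Col5a2 reads of its group, the log2 value of Col5a2 was −4.98 and that of Col5a3 −3.66.

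Between PDGFB tumors and normal brain, Col5a1 was called higher, with a ratio of 10.5 (95% interval 1.69 to 432, adjusted p = 0.0278). That call was lost with limma-voom (adjusted p = 0.120), and without normal brain 1 or 3 (adjusted p = 0.0790 and 0.0910). The fitted log2 change was 3.03, or 5.12 without normal brain 2, where no normal read is left and the size depends on the prior count. Neither Col5a2 (at least 1.27-fold higher, adjusted p = 0.144) nor Col5a3 (log2 fold change 2.59, adjusted p = 0.0922) passed; Col5a3 passed without PDGFB tumor 1 (adjusted p = 0.0368).

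Col5a1 is the one fibrillar chain tested here with exons on the other strand. An exon of Gm13372, a processed transcript in the annotation (chr2:28025417-28030437), overlaps its exons by 113 bases, and one of 2810430I11Rik by 99 bases. Gm13372 had 26, 46, 35, 18 and 48 reads in the PDGFB tumors, 512, 234, 248, 447 and 231 in the RAS tumors and 3, 2 and 5 in the normal brains. Per kb of exon, Gm13372 held 79.5 CPM in the PDGFB tumors, 841 in the RAS tumors and 9.45 in the normal brains, while Col5a1 held 0.826, 12.8 and 0.0853. The groups of Gm13372 stood in the same order as those of Col5a1, with log2 fold changes of 3.01 ± 0.50 for PDGFB tumors over normal brain, 6.41 ± 0.49 for RAS tumors over normal brain and −3.40 ± 0.30 for PDGFB over RAS tumors (SE). For 2810430I11Rik, with 53 reads in the PDGFB tumors, 607 in the RAS tumors and 2 in the normal brains, these log2 fold changes were 3.46, 7.09 and −3.63. The 3 genes were called alike in each comparison, and the call of 2810430I11Rik between PDGFB tumors and normal brain was lost with limma-voom and without normal brain 1 (adjusted p = 0.175 and 0.0638).

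Col11a1 (ENSMUSG00000027966, chr3:114030540-114220718), a chain of type XI collagen that starts the fibrils of cartilage, stood in the opposite order between the tumors. It had 56, 164, 58, 40 and 50 reads in the PDGFB tumors, 29, 22, 27, 17 and 0 in the RAS tumors and 1, 0 and 1 in the normal brains. Every PDGFB tumor lay above every RAS tumor, PDGFB tumor 2 was the highest, and RAS tumor 5, the library with the most type I, III and VI reads, had none. The ratio over normal brain was 87.6 in PDGFB tumors (95% interval 24.1 to 726, adjusted p = 0.000119) and 24.9 in RAS tumors (6.70 to 208, adjusted p = 0.00289). The RAS call was lost with limma-voom (adjusted p = 0.184). Col11a1 was 3.50-fold higher in PDGFB than in RAS tumors (log2 fold change 1.81 ± 0.51 SE, adjusted p = 0.0122), and without PDGFB tumor 2 the value was 1.30 and the call was lost (adjusted p = 0.0523).

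Promoters are shown for Col11a1, higher in PDGFB than in RAS tumors, and for 2 type V chains, lower in them, whose windows hold no annotated exon. RefSeq (GRCm38.p6) held an entry for 14 of the 17 tested genes, with 16 windows of the 250 bases before a start site. The motifs searched on both strands were the AP-1 site TGANTCA, the CCAAT box CCAAT (or ATTGG), the GC box GGGCGG (or CCGCCC) and the TATA box TATAAA (or TTTATA). No motif match overlaps another in the windows printed. A window is given for Col11a1 (chr3:114030290-114030539, plus strand), Col5a1 (chr2:27886175-27886424, plus strand) and Col5a3 (chr9:20815068-20815317, minus strand), 5′ to 3′, with motif matches in capitals.
Col11a1: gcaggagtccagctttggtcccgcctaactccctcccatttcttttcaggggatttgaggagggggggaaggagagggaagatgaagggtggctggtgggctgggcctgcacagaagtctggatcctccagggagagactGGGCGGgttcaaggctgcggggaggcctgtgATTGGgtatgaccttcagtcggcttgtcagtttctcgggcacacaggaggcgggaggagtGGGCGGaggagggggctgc
Col5a1: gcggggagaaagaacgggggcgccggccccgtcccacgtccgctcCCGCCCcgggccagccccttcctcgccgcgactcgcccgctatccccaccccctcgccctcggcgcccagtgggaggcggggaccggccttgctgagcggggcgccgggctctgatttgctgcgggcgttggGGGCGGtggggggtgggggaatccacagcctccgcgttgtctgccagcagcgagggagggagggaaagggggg
Col5a3: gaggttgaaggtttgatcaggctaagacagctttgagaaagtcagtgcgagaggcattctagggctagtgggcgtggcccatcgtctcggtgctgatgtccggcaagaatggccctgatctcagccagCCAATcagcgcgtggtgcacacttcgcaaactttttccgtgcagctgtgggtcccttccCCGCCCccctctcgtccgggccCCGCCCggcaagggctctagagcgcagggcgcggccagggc
Each of the 3 holds 2 GC boxes, those of Col11a1 and Col5a3 hold 1 CCAAT box, and none holds an AP-1 or TATA match. Windows free of exons that are not printed, of other genes lower in PDGFB than in RAS tumors, differed from these. Col3a1 held 1 TATA match and no GC box, Col15a1 held no match, and the exon-free window of Col6a2 held 1 GC box. Among the 16 collagen windows, a GC box was in 56.2%, against 32.7% of all 32851 windows, and a CCAAT box in 43.8%, against 33.8%. An AP-1 match was found in 1 window, that of Col6a1 (6.75% of all windows have one), and a TATA match in 1, that of Col3a1 (12.4% of all windows). A match is a run of letters and does not show binding.

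Type IV collagen was high in both tumor types. Col4a1 (ENSMUSG00000031502, chr8:11198423-11312826) and Col4a2 (ENSMUSG00000031503, chr8:11312805-11449287) encode the chains of the main basement membrane network and lie head to head, so that their first exons overlap on opposite strands by 22 bases. The shared stretch (chr8:11312805-11312826, plus strand) is shown because a read inside it could be counted for either gene.
Col4a1 and Col4a2 shared stretch: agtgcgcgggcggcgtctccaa
Col4a1 had 67, 95, 84, 79 and 57 reads in the PDGFB tumors, 69, 46, 55, 47 and 103 in the RAS tumors and 5, 2 and 4 in the normal brains. Col4a2 had 13, 12, 14, 9 and 9 reads in the PDGFB tumors, 26, 26, 29, 24 and 56 in the RAS tumors and 2, 3 and 0 in the normal brains. Every tumor exceeded every normal brain for both genes, the tumor groups overlapped for Col4a1, and every RAS tumor exceeded every PDGFB tumor for Col4a2. Col4a1 was 16.2-fold higher in PDGFB tumors (log2 fold change 4.01 ± 0.41 SE, adjusted p = 1.94e-06) and 14.9-fold higher in RAS tumors (3.90 ± 0.42 SE, adjusted p = 1.2e-06) than in normal brain. Its difference between PDGFB and RAS tumors was 0.12 ± 0.25 SE (adjusted p = 0.752) and did not pass.

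Col4a2 was 5.13-fold higher in PDGFB tumors (2.36 ± 0.61 SE, adjusted p = 0.00473) and 15.8-fold higher in RAS tumors (3.99 ± 0.56 SE, adjusted p = 1.6e-05) than in normal brain, with log2 values of 3.19 and 4.77 without normal brain 2. It was 3.09-fold lower in PDGFB than in RAS tumors (−1.63 ± 0.34 SE, adjusted p = 0.00142). The 2 chains thus stood at different ratios: per kb of exon, Col4a1 held 4.57, 7.02, 5.32, 7.78 and 5.62 times the level of Col4a2 in the 5 PDGFB tumors and 2.35, 1.57, 1.68, 1.74 and 1.63 times in the 5 RAS tumors, with no overlap. An exon of the antisense gene Gm15419 overlaps Col4a2 by 43 bases. Gm15419 had 257 reads in the PDGFB tumors, 490 in the RAS tumors and 29 in the normal brains, with log2 fold changes of 2.06 ± 0.42, 3.12 ± 0.43 and −1.06 ± 0.30 (SE) for PDGFB over normal, RAS over normal and PDGFB over RAS. Like Col4a2 it was called higher, higher and lower in these. The other type IV chains, Col4a3, Col4a4, Col4a5 and Col4a6, which form the networks of kidney, lung and smooth muscle, had 21 to 38 reads each over all libraries and were not tested. C430014B12Rik, which overlaps Col4a3 by 563 bases, had 1223 reads in the PDGFB tumors, 669 in the RAS tumors and 781 in the normal brains. It was lower in RAS tumors than in normal brain (fitted log2 change −1.16) and higher in PDGFB than in RAS tumors (0.74), and its change in PDGFB tumors over normal brain did not pass (−0.42, adjusted p = 0.0892).

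Type VI collagen, a beaded filament found in most connective tissue, was highest in RAS tumors. Col6a1 (ENSMUSG00000001119, chr10:76708792-76726168) had 5, 3, 2, 5 and 0 reads in the PDGFB tumors, 32, 17, 18, 17 and 83 in the RAS tumors and none in the normal brains. Col6a2 (ENSMUSG00000020241, chr10:76595762-76623630) had 1, 3, 3, 2 and 2 reads in the PDGFB tumors, 27, 5, 23, 7 and 83 in the RAS tumors and 0, 1 and 2 in the normal brains. Every RAS tumor exceeded every other library for both genes, and RAS tumor 5 was far above the other RAS tumors. Col6a1 was at least 29.2-fold higher in RAS tumors than in normal brain (adjusted p = 0.000116), and the ratio for Col6a2 was 25.3 (95% interval 8.49 to 124, adjusted p = 0.00113; fitted log2 change 4.53, or 5.42 without normal brain 3). In PDGFB tumors Col6a1 was 11.8-fold lower than in RAS tumors (log2 fold change −3.56 ± 0.61 SE, adjusted p = 0.000412; −2.89 without RAS tumor 5) and Col6a2 was 13.8-fold lower (−3.78 ± 0.72 SE, adjusted p = 0.000745).

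Between PDGFB tumors and normal brain Col6a1 was at least 2.38-fold higher and did not pass (adjusted p = 0.0741). It passed in 5 alternatives, among them DESeq2 (adjusted p = 0.0205) and the fit without RAS tumor 5 (adjusted p = 0.0170). Col6a2 had a log2 fold change of 0.75 there (adjusted p = 0.690). The third chain of the filament, Col6a3, had 7 reads over the PDGFB tumors, 41 over the RAS tumors and none in normal brain, and was too low to test. Col6a4 and Col6a6 had 2 and 1 reads in all and Col6a5 had none.

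The FACIT collagens did not share a direction: of 4 tested, 2 were higher and 1 lower in PDGFB tumors against normal brain, 1 was higher and 1 lower in RAS tumors, and 2 were higher in PDGFB than in RAS tumors. Col16a1 (ENSMUSG00000040690, chr4:130047840-130099283), the chain of type XVI, had 19, 28, 24, 20 and 14 reads in the PDGFB tumors, 28, 18, 21, 23 and 16 in the RAS tumors and 6, 3 and 2 in the normal brains. All tumors exceeded all normal brains and the tumor groups overlapped. Col16a1 was 4.44-fold higher in PDGFB tumors (log2 fold change 2.15 ± 0.41 SE, adjusted p = 0.00048; 2.76 without normal brain 1) and 4.92-fold higher in RAS tumors (2.30 ± 0.41 SE, adjusted p = 0.000161) than in normal brain. Its difference between the tumors was −0.15 (adjusted p = 0.708).

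Col9a3 (ENSMUSG00000027570, chr2:180597790-180622189), a chain of type IX, which coats the fibrils of cartilage, had 15, 30, 16, 8 and 13 reads in the PDGFB tumors, 11, 0, 7, 4 and 1 in the RAS tumors and 4, 2 and 3 in the normal brains. Every PDGFB tumor exceeded every normal brain, while RAS tumors overlapped both other groups. It was 4.22-fold higher in PDGFB tumors than in normal brain (2.08 ± 0.71 SE, adjusted p = 0.0241) and 3.18-fold higher than in RAS tumors (1.67 ± 0.55 SE, adjusted p = 0.0273). The first call was lost with limma-voom and without PDGFB tumor 2, normal brain 2 or normal brain 3 (adjusted p 0.0620 to 0.0681), and the second without PDGFB tumor 2, RAS tumor 4 or RAS tumor 5 (0.0569 to 0.0925). RAS tumors over normal brain gave 0.41 (adjusted p = 0.686). Exons of Tcfl5, a transcription factor gene on the other strand, overlap Col9a3 by 234 bases. Tcfl5 had 163 reads in the PDGFB tumors, 26 in the RAS tumors and 15 in the normal brains, with log2 fold changes of 2.35 for PDGFB over normal (adjusted p = 0.00237), −0.12 for RAS over normal (adjusted p = 0.885) and 2.47 for PDGFB over RAS (adjusted p = 0.000567; 3.16 without RAS tumor 3).

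Col19a1 (ENSMUSG00000026141, chr1:24261890-24587472), the chain of type XIX, had 22, 23, 6, 15 and 16 reads in the PDGFB tumors, 0, 1, 8, 0 and 0 in the RAS tumors and 9, 2 and 4 in the normal brains. RAS tumor 3 held 8 of the 9 RAS reads and kept the tumor groups overlapping. Col19a1 was 7.73-fold higher in PDGFB than in RAS tumors (2.95 ± 0.71 SE, adjusted p = 0.00444), and the log2 value without RAS tumor 3 was 5.34. Neither tumor type differed from normal brain past the threshold, with log2 fold changes of 1.36 in PDGFB tumors (adjusted p = 0.135) and −1.59 in RAS tumors (adjusted p = 0.155). Without RAS tumor 3 both passed, at adjusted p = 0.0376 and 0.00288.

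Col20a1 (ENSMUSG00000016356, chr2:180986535-181018363), the chain of type XX, was the one tested collagen gene called lower in tumors than in normal brain. It had 3, 2, 3, 0 and 9 reads in the PDGFB tumors, 0, 13, 7, 3 and 2 in the RAS tumors and 8, 19 and 18 in the normal brains. Every PDGFB tumor lay below every normal brain after scaling, and RAS tumor 2 overlapped them. Col20a1 was 5.41-fold lower in PDGFB tumors (−2.43 ± 0.74 SE, adjusted p = 0.0124; −3.16 without PDGFB tumor 5) and 3.40-fold lower in RAS tumors (−1.77 ± 0.71 SE, adjusted p = 0.0415) than in normal brain. The PDGFB call was lost without normal brain 2 (adjusted p = 0.0819) or 3 (0.0566), and the RAS call in 9 alternatives, with an adjusted p of up to 0.184. PDGFB over RAS tumors gave −0.67 (adjusted p = 0.537).

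The multiplexins Col15a1 and Col18a1, the second being the source of the fragment endostatin, were both higher in RAS tumors than in normal brain and lower in PDGFB than in RAS tumors. Col18a1 (ENSMUSG00000001435, chr10:77052178-77166548) had 6, 24, 5, 15 and 13 reads in the PDGFB tumors, 45, 16, 34, 29 and 79 in the RAS tumors and 3, 13 and 3 in the normal brains. Col15a1 (ENSMUSG00000028339, chr4:47208161-47313167) had 4, 1, 3, 7 and 0 reads in the PDGFB tumors, 29, 7, 12, 22 and 2 in the RAS tumors and 1, 2 and 1 in the normal brains. The groups overlapped for both genes, with RAS tumor 5 the highest RAS tumor for Col18a1 and the lowest for Col15a1. In RAS tumors Col18a1 was 5.44-fold higher than in normal brain (2.44 ± 0.63 SE, adjusted p = 0.00305; 3.62 without normal brain 2). Col15a1 was 8.74-fold higher there (3.13 ± 0.92 SE, adjusted p = 0.00801; lost with limma-voom, adjusted p = 0.0786). PDGFB over RAS tumors gave −1.82 ± 0.47 (adjusted p = 0.00698) for Col18a1 and −2.35 ± 0.66 (adjusted p = 0.0111) for Col15a1 (SE). PDGFB tumors over normal brain gave 0.62 (adjusted p = 0.469) and 0.78 (adjusted p = 0.589). Gm12426, which overlaps an exon of Col15a1 by 14 bases on the other strand, had 23 reads in the PDGFB tumors, 121 in the RAS tumors and none in the normal brains, too few to test.

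Of the 27 collagen genes too low to test, none had more than 68 reads over the 13 libraries or 20 in 1 library, 15 had more reads in RAS than in PDGFB tumors and 9 had fewer. The 5 with the most reads were Col8a1, Col12a1, Col6a3, Col23a1 and Col4a5. Col8a1, a short-chain network collagen of vessel walls, had 11 reads in the PDGFB tumors, 55 in the RAS tumors and 2 in the normal brains. Col12a1, a FACIT of tendon and skin, had 18, 37 and 4 reads in these groups, and Col23a1, a transmembrane collagen, had 4, 33 and 10. Col4a5 had 20 reads in the PDGFB tumors, 17 in the RAS tumors and 1 in the normal brains. Col9a2, the partner chain of Col9a3, had 13 reads in the PDGFB tumors, none in the RAS tumors and 14 in the normal brains. Of the partners of the remaining low genes with an exon on the other strand, namely Col6a4, Col6a6, Col10a1 and Col22a1, none was tested.

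The mix of collagens differed between the groups as well as the amount. Fibrillar genes took 28.6% to 40.6% of the collagen reads of a PDGFB tumor, 38.7% to 48.8% of a RAS tumor and 11.8% to 13.9% of a normal brain. Type IV genes took 27.2% to 40.9% across PDGFB tumors, 16.1% to 24.9% across RAS tumors and 7.35% to 19.1% across normal brains. Type VI genes took 1.26% to 3.27%, 7.01% to 20.4% and 0% to 3.80% in the same order of groups, and FACIT genes 20.1% to 25.7%, 4.28% to 13% and 45.6% to 48.5%. The PDGFB and RAS ranges overlapped for fibrillar genes and were apart for the types IV and VI and the FACIT genes.

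**Figure D4:**
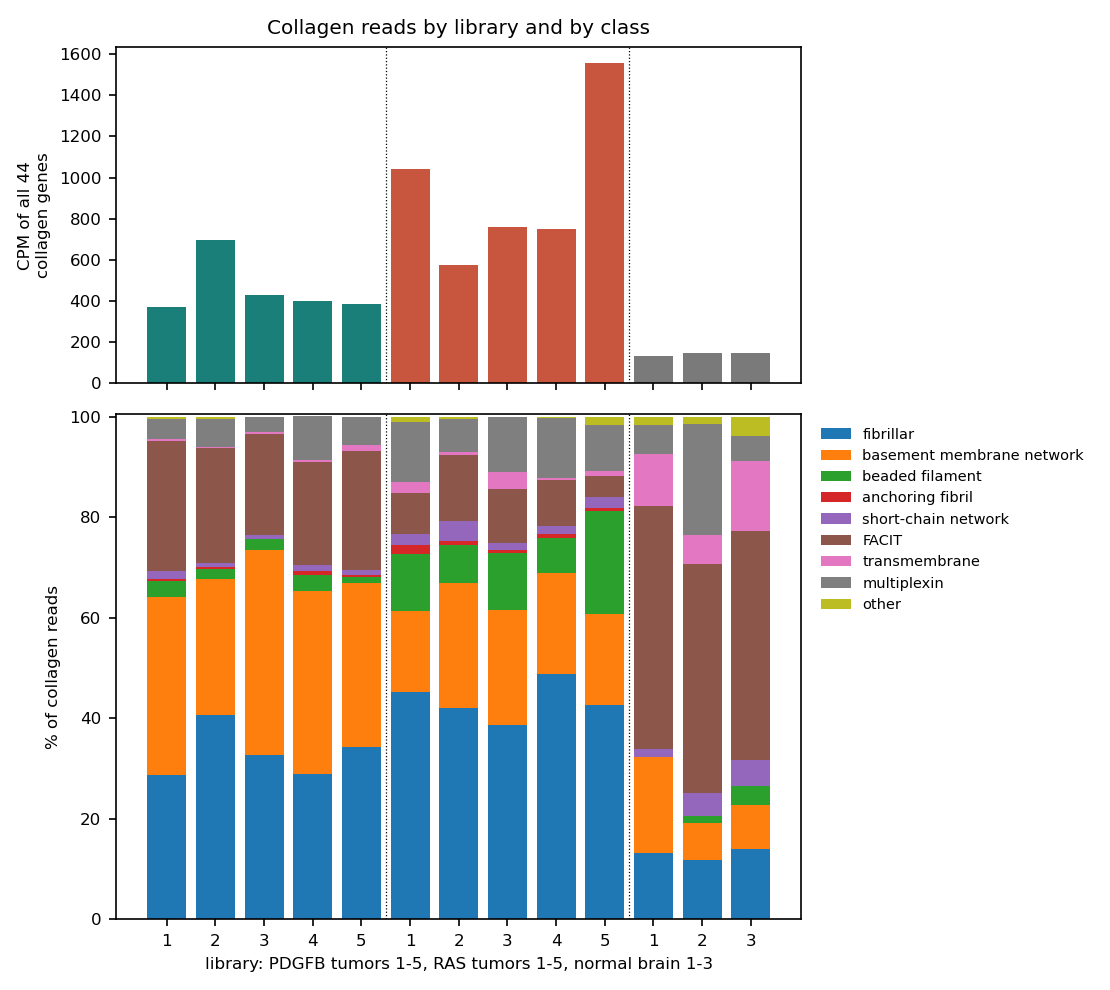
Summed CPM of all 44 collagen genes in each library (top, bars from 0) and the share of collagen reads in each structural class (bottom, in percent), with 1 bar per library. FACIT genes take 45.6% to 48.5% of the reads in the 3 normal brains and 4.28% to 13% in RAS tumors, where type VI genes take 7.01% to 20.4%.

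Per kb of exon, Col4a1 stood first in both tumor types, at 16.2 ± 3.14 CPM per kb in PDGFB tumors and 14.9 ± 5.60 in RAS tumors (SD, n = 5 each). In PDGFB tumors it was followed by Col11a1 at 9.07 ± 6.16, Col9a3 at 6.70 ± 3.28, Col16a1 at 4.91 ± 1.23 and Col19a1 at 3.73 ± 1.49, and neighbours from Col11a1 down differed by less than the larger SD of the pair. In RAS tumors it was followed by Col6a1 at 13.3 ± 11.4, Col5a1 at 12.8 ± 5.55, Col18a1 at 10.1 ± 5.98 and Col4a2 at 8.47 ± 3.62, and these neighbours differed by less than the larger SD of the pair. In normal brain Col20a1 stood first at 5.86 ± 2.56 and was followed by Col9a2 at 2.99 ± 0.175 and Col18a1 at 1.88 ± 1.85 CPM per kb (SD, n = 3). RAS tumor 5 was the highest of its group for 9 of the 17 tested genes, RAS tumor 2 was the lowest for 9, and PDGFB tumor 2 was the highest for 6.

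Genes that make, bind and break down collagen were listed beside the collagens. Among all tested genes, 20.2% were higher and 25.1% lower in PDGFB tumors and 26.9% and 29.3% in RAS tumors against normal brain, and 14.6% were higher and 17.4% lower in PDGFB than in RAS tumors. Of 12 tested genes of collagen processing, 5 were higher and 2 lower in PDGFB tumors against normal brain, 9 were higher and 2 lower in RAS tumors, and 7 were lower in PDGFB than in RAS tumors while 5 did not pass. The list's median log2 fold changes were 1.18, 2.89 and −1.29. Without normal brain 3, 15 genes of the list were tested. Of these, 3 were higher in PDGFB tumors and 1 was lower in RAS tumors against normal brain. The count higher in PDGFB tumors was also 3 without normal brain 1 or PDGFB tumor 1. Serpinh1, the chaperone that folds procollagen, had 11, 5, 8, 3 and 6 reads in the PDGFB tumors, 78, 42, 36, 61 and 63 in the RAS tumors and 0, 3 and 0 in the normal brains. It was higher in RAS tumors than in normal brain by a ratio of 48.9 (95% interval 16.6 to 238, adjusted p = 2.83e-06) and 9.15-fold lower in PDGFB than in RAS tumors (adjusted p = 1.15e-05). Its call in PDGFB tumors over normal brain (ratio 5.24, 1.64 to 26.7, adjusted p = 0.0267) was lost without PDGFB tumor 1, normal brain 1 or normal brain 3. All 3 normal reads lay in normal brain 2. Without it the fitted log2 changes over normal brain were 5.68 in PDGFB tumors and 8.82 in RAS tumors, against 2.26 and 5.45 with all libraries. Those sizes without it depend on the prior count, since no normal read is left.

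Bmp1, the protease that trims the end of procollagen, had 14, 30, 12, 10 and 8 reads in the PDGFB tumors, 63, 28, 36, 51 and 44 in the RAS tumors and 1, 1 and 1 in the normal brains. Its ratio over normal brain was 11.7 in PDGFB tumors (95% interval 3.87 to 58.3, adjusted p = 0.000482) and 38.8 in RAS tumors (13.1 to 189, adjusted p = 2.7e-06), and it was 3.29-fold lower in PDGFB than in RAS tumors (adjusted p = 0.00063). Plod2, a lysyl hydroxylase of collagen (opposite Gm38391), had 40 reads in the PDGFB tumors, 81 in the RAS tumors and 3 in the normal brains, and its ratios over normal brain were 6.35 in PDGFB tumors (adjusted p = 0.00879) and 14.1 in RAS tumors (adjusted p = 0.000174); without normal brain 3 the fitted log2 changes were 3.45 and 4.58, against 2.55 and 3.69. Sparc, a secreted protein that binds collagen, averaged 80.6 ± 24.1 CPM in the PDGFB tumors, 630 ± 224 in the RAS tumors and 79 ± 14.3 in the normal brains (SD, n = 5, 5 and 3). It was 7.94-fold higher in RAS tumors than in normal brain (adjusted p = 1.22e-06) and 7.80-fold lower in PDGFB than in RAS tumors (adjusted p = 6.24e-07), and its log2 fold change in PDGFB tumors over normal brain was 0.03 (adjusted p = 0.95). Crtap, part of the complex that modifies prolines of collagen, was 3.65-fold lower in PDGFB than in RAS tumors (adjusted p = 0.00912). The 2 genes called lower in both tumor types than in normal brain were Colgalt1 (opposite Unc13a) and Plod3 (opposite Znhit1), enzymes that add sugars and hydroxyl groups to collagen lysines. Colgalt1 was 4.05-fold lower in PDGFB tumors (adjusted p = 0.000135) and 2.79-fold lower in RAS tumors (adjusted p = 0.000972). Plod3 was 1.74-fold lower in PDGFB tumors (adjusted p = 0.00393) and 1.47-fold lower in RAS tumors (adjusted p = 0.0269); the RAS call was lost in 12 alternatives and the PDGFB call without normal brain 2 or without the low-count filter.

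Of the crosslinking enzymes, Tgm2, a transglutaminase (opposite Rprd1b), and Loxl3, a lysyl oxidase (opposite Htra2), were tested. Both were higher in RAS tumors than in normal brain, 5.03-fold (adjusted p = 0.00621) and 2.11-fold (adjusted p = 0.0024). Both were lower in PDGFB than in RAS tumors, 5.30-fold (adjusted p = 0.00222; log2 −3.22 without PDGFB tumor 1, against −2.41) and 1.85-fold (adjusted p = 0.00554), and neither passed in PDGFB tumors over normal brain (log2 fold changes −0.07 and 0.18). Lox itself had 6 reads in the PDGFB tumors, 14 in the RAS tumors and 1 in the normal brains, too few to test. Bgn, the proteoglycan biglycan that binds fibrils and the one tested of 9 small leucine-rich proteoglycans, had 4, 2, 8, 11 and 6 reads in the PDGFB tumors, 24, 17, 19, 4 and 43 in the RAS tumors and 1, 1 and 3 in the normal brains. It was 10.6-fold higher in RAS tumors than in normal brain (adjusted p = 0.00104; log2 4.11 without normal brain 3, against 3.41) and 3.73-fold lower in PDGFB than in RAS tumors (adjusted p = 0.00785), and it did not pass in PDGFB tumors over normal brain (log2 fold change 1.51, adjusted p = 0.167).

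Of 12 listed collagen receptors, 6 were tested: 4 were called higher in PDGFB tumors and 5 in RAS tumors than in normal brain, and 1 was higher and 3 were lower in PDGFB than in RAS tumors. Ddr1 (opposite exons of other genes by 216 bases) passed in no comparison, with log2 fold changes of 1.10 for PDGFB over normal (adjusted p = 0.0597) and 0.63 for RAS over normal (adjusted p = 0.270). The medians were 2.67, 3.35 and −0.23. Itgb1, the beta chain shared by the collagen-binding integrins, had 153, 191, 152, 147 and 140 reads in the PDGFB tumors, 733, 274, 267, 720 and 582 in the RAS tumors and 18, 29 and 14 in the normal brains, with no overlap between any groups. It was 5.99-fold higher in PDGFB tumors (adjusted p = 5.47e-05) and 21.6-fold higher in RAS tumors (adjusted p = 2.99e-07) than in normal brain, and 3.61-fold lower in PDGFB than in RAS tumors (adjusted p = 0.00011). Itga1, an alpha partner, had 24, 35, 22, 15 and 25 reads in the PDGFB tumors, 17, 5, 14, 10 and 3 in the RAS tumors and 1, 2 and 1 in the normal brains, and was 13.4-fold higher in PDGFB tumors than in normal brain (adjusted p = 0.000164) and 2.23-fold higher than in RAS tumors (adjusted p = 0.026, lost without PDGFB tumor 2 or RAS tumor 5). Itga2 had 33, 60, 12, 19 and 14 reads in the PDGFB tumors, 31, 1, 13, 2 and 4 in the RAS tumors and 1, 2 and 0 in the normal brains, and its ratio over normal brain was 21.9 in PDGFB tumors (95% interval 7.34 to 108, adjusted p = 0.00441). Without normal brain 2 its fitted log2 change there was 5.30, against 4.30 with all libraries. Its call in RAS tumors over normal brain (adjusted p = 0.043) was lost with limma-voom (0.224) and without normal brain 3 (0.125), among other alternatives. Its groups of tumors overlapped and did not differ past the threshold (log2 fold change 1.28, adjusted p = 0.122), though they did in 3 alternatives (adjusted p 0.00278 to 0.0319). The other listed alpha chains were too low to test: Itga10 had 11 reads in the PDGFB tumors, 15 in the RAS tumors and 5 in the normal brains, and Itga11 had 3, 3 and 9. Ddr2 (opposite 3110045C21Rik) is a receptor kinase for fibrillar collagen. It was 6.80-fold higher in PDGFB tumors (adjusted p = 0.00113) and 12.9-fold higher in RAS tumors (adjusted p = 3.58e-05) than in normal brain. Its lower call in PDGFB than in RAS tumors (adjusted p = 0.0382) was lost with DESeq2 (0.0504) and limma-voom (0.0543), among other alternatives. Mrc2, a receptor that takes up collagen, had 0, 4, 2, 1 and 0 reads in the PDGFB tumors, 13, 9, 18, 23 and 36 in the RAS tumors and 0, 1 and 2 in the normal brains. Its ratio of RAS tumors over normal brain was 17.3 (5.74 to 85.2, adjusted p = 0.000499), and it was 14.3-fold lower in PDGFB than in RAS tumors (adjusted p = 0.000181; log2 −4.62 without PDGFB tumor 2, against −3.84). PDGFB tumors over normal brain gave 0.14 (adjusted p = 0.930), and the RAS value was 4.87 without normal brain 3, against 3.98.

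Of 8 tested genes of collagen breakdown and its inhibitors, 5 were higher and 2 lower in PDGFB tumors against normal brain, 6 were higher in RAS tumors while 2 did not pass, and 1 was higher and 7 were lower in PDGFB than in RAS tumors (medians 1.34, 2.68 and −1.60). Mmp14 and Mmp15 are membrane-bound metalloproteases. Mmp15 was the gene higher in PDGFB than in RAS tumors: it had 78, 82, 65, 73 and 64 reads in the PDGFB tumors, 16, 21, 31, 7 and 5 in the RAS tumors and 2, 3 and 1 in the normal brains, a 4.08-fold difference between the tumors (adjusted p = 0.000336) and a 27.2-fold one over normal brain in PDGFB tumors (adjusted p = 8.55e-06). Mmp14 was 6.75-fold higher in PDGFB tumors (adjusted p = 0.00129) and 17.4-fold higher in RAS tumors (adjusted p = 1.3e-05) than in normal brain. Timp1, an inhibitor of metalloproteases, had 3, 7, 5, 0 and 4 reads in the PDGFB tumors, 105, 59, 99, 160 and 68 in the RAS tumors and none in the normal brains. It was at least 85.7-fold higher in RAS tumors than in normal brain (adjusted p = 1.44e-06) and 27.6-fold lower in PDGFB than in RAS tumors (adjusted p = 2.45e-06). In PDGFB tumors it was at least 3.02-fold higher than in normal brain (adjusted p = 0.017), a call lost with limma-voom (adjusted p = 0.127). Ctsl, a lysosomal protease (opposite Gm47123), was 2.83-fold higher in PDGFB tumors (adjusted p = 0.01; lost with limma-voom, 0.0622) and 21.3-fold higher in RAS tumors (adjusted p = 5.88e-07) than in normal brain. The inhibitors Timp2 and Timp3 (opposite Syn3) were lower in PDGFB tumors when set against normal brain, 2.68-fold (adjusted p = 0.00479) and 1.96-fold (adjusted p = 0.0216), and lower than in RAS tumors, 4.79-fold (adjusted p = 6.44e-05) and 2.52-fold (adjusted p = 0.00149). The Timp3 call against normal brain was lost in 7 alternatives (adjusted p up to 0.227). Among them is the fit without normal brain 3, where 1 of 9 tested genes of this list was lower in PDGFB tumors.

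Markers of other cells were read beside these genes, from lists of which single members are named here after their values were seen. Of 12 fibroblast and meningeal markers, 8 had a higher mean CPM in RAS than in PDGFB tumors and 3 a lower one. Their summed level was 15.2 to 43.9 CPM across PDGFB tumors, 98.7 to 214 across RAS tumors and 120 to 171 across normal brains. The gap between the tumors rests on Fbln2, with 5 reads in the PDGFB tumors, 276 in the RAS tumors and none in the normal brains. Without it the sums were 13.7 to 42.3 CPM across PDGFB tumors and 21.8 to 64.9 across RAS tumors, and they overlapped. The sum in normal brain is mostly Ptgds (29 reads in the PDGFB tumors, 31 in the RAS tumors and 208 in the normal brains). The defining fibroblast genes Dcn and Lum had 13 and 3 reads in the PDGFB tumors, 26 and 10 in the RAS tumors and 3 and 0 in the normal brains, while Dpt had 20, 3 and 3 in these groups.

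For 12 pericyte and smooth muscle markers the sum was 69.9 to 99.8 CPM across PDGFB tumors, 70.3 to 232 across RAS tumors and 78.1 to 82.1 across normal brains. Most of it in PDGFB tumors was Tagln, of whose 1988 exon bases 1349 lie over exons of the other strand; without it the sums were 10.7 to 28.5, 35.1 to 121 and 46.5 to 60.9 CPM. Against normal brain, 5 members had a higher mean CPM in PDGFB tumors and 7 a lower one, and 9 had a higher one in RAS tumors and 3 a lower one. Rgs5 was called lower in PDGFB tumors in both comparisons, with log2 fold changes of −1.92 over normal brain (adjusted p = 0.0372) and −2.86 over RAS tumors (adjusted p = 0.00128). Pdgfrb had 11 reads in the PDGFB tumors, 30 in the RAS tumors and 4 in the normal brains, Acta2 had 2, 48 and 0, Notch3 had 15, 14 and 36 and Vtn had 7, 6 and 15. For 14 endothelial markers the sum was 32.6 to 83.5 CPM across PDGFB tumors, 93.7 to 221 across RAS tumors and 50.0 to 61.4 across normal brains, and 12 of the 14 had a higher mean in RAS than in PDGFB tumors. When set against normal brain, 5 of the 14 had a higher mean CPM in PDGFB tumors and 9 a lower one. In RAS tumors 10 had a higher mean and 4 a lower one. Pecam1 had 10, 31 and 6 reads in the 5 PDGFB tumors, 5 RAS tumors and 3 normal brains, or 3.19, 10.7 and 4.06 CPM on average. Cdh5 had 4, 24 and 2 reads, or 1.28, 8.31 and 1.38 CPM. Esam averaged 2.88, 8.62 and 11.1 CPM in these groups and Slco1a4 1.59, 1.36 and 5.91.

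For 12 macrophage and microglial markers the sum was 245 to 340 CPM across PDGFB tumors, 562 to 923 across RAS tumors and 301 to 328 across normal brains. Csf1r, with 873 bases opposite exons of Hmgxb3, averaged 191 CPM in the PDGFB tumors, 302 in the RAS tumors and 283 in the normal brains. Without it the sums were 69.9 to 119 CPM across PDGFB tumors, 308 to 563 across RAS tumors and 29.3 to 37.2 across normal brains, with no overlap. All 12 had a higher mean in RAS than in PDGFB tumors, and Lyz2 was called higher in both tumor types than in normal brain (log2 fold changes 2.29 and 5.50).

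The markers of oligodendrocyte precursors stood in the order of Col9a3, Col11a1 and Col19a1 between the tumors. Of the 9 markers, 8 were called higher in PDGFB than in RAS tumors, where 14.6% of all tested genes were. Their sum was 701 to 965 CPM across PDGFB tumors, 185 to 416 across RAS tumors and 121 to 136 across normal brains. Mature oligodendrocyte markers summed to 787 to 893 CPM across PDGFB tumors, 676 to 942 across RAS tumors and 1886 to 2691 across normal brains. Most of the sum in tumors was Cnp, opposite Dnajc7 and called in no comparison. Without it the sums were 130 to 230, 82.5 to 346 and 1215 to 1882 CPM in the same order of groups. Of 7 tested markers, 5 were called lower in PDGFB tumors and 6 in RAS tumors than in normal brain. The shares of all tested genes called lower were 25.1% and 29.3%. Of 10 neuron markers, 9 were called lower in PDGFB tumors and 7 in RAS tumors than in normal brain, beside the same shares. Their sum was 334 to 667 CPM across PDGFB tumors, 4023 to 9415 across RAS tumors and 6012 to 6508 across normal brains. Most of it was Nefm, whose exons overlap those of Nefl on the other strand. Without Nefm the sums were 184 to 336, 296 to 487 and 1491 to 1614 CPM in that order. Nefm and Nefl did not pass in RAS tumors over normal brain (log2 fold changes 0.19 and 0.64). For 8 choroid plexus markers the sum was 26.0 to 57.5 CPM across PDGFB tumors, 15.1 to 47.4 across RAS tumors and 125 to 242 across normal brains. Most of it in the tumors was Enpp2, and without it the sums were 1.52 to 9.32, 5.05 to 14 and 63.2 to 170 CPM. The part of any of these cells in the collagen differences was not tested.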

How the data were processed

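The samples were 5 PDGFB tumors, 5 RAS tumors and 3 normal brains, measured by sequencing of polyadenylated RNA. Per the labels, RNA came from Trizol extraction and libraries from a TruSeq RNA kit. Reads passed through fastp 0.22.0 and STAR 2.7.9a with GRCm38, per the submitters' processing notes; the annotation and the strand setting of the count are not given in the sources used here. The authors deposited raw counts, whole reads for 55416 Ensembl genes, without normalization. Libraries held 529162 to 643055 reads in genes, which sets the counting precision.

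Groups came from titles and tissue labels. Symbols, exons and strands were matched to GENCODE M21 (52135 genes matched, 3281 not). filterByExpr (minimum count 10, minimum total 15) kept 7722 genes. edgeR 4.0.16 in R 4.3.3, with TMM factors and 1 coefficient per group over 13 libraries, gave two-sided quasi-likelihood tests; the threshold was 0.05 after Benjamini-Hochberg adjustment. CPM divides reads by kept-gene totals times TMM factors. With no read in a group, the fold is a lower bound from 3 reads over the group; with 1 to 3 reads, a count ratio with an exact 95% interval. Alternatives were library totals, median-of-ratios factors, no or a looser filter, DESeq2 1.42.0, limma 3.58.1 (voom), the compared groups alone, genes with no exon on the other strand, a replicate block and leaving out each library. No replicate pair agreed within sampling noise (lowest chi-square per degree of freedom 1.79). Marker sums were also taken without each member in turn, a step added after seeing the data. Those without Fbln2, Tagln, Csf1r, Cnp, Nefm or Enpp2 are given. The fit was tested on simulated data. Every collagen gene called in a comparison is named, as are the 5 untested ones with the most reads and up to 3 called genes per list and direction. Members and lists were chosen with earlier results of these data known. Promoters are from RefSeq (GRCm38.p6).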

Additional observations from a re-analysis of the deposited data

Results flagged for a closer look

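In 17 of 64 groups of 5 tumors examined, 1 tumor lay far from the other 4. Chance gives about 1 in 20 for independent, normally distributed values. These groups are not independent, since the sums contain the genes, and CPM from few reads need not be normally distributed. That rate is therefore no yardstick here. RAS tumor 5 was the highest of its group for Col1a2 (179 CPM, others 30.9 to 70.3), Col3a1 (112, others 20.1 to 36.4), Col4a2 (98.3, others 42.0 to 52.7), Col6a1 (146, others 28.5 to 53.8) and Col6a2 (146, others 8.37 to 45.4). Its summed type IV level was 283 CPM (others 144 to 175) and its summed type VI level 318 CPM (others 43.5 to 118). PDGFB tumor 2 was the highest of its group for Col11a1 (255 CPM, others 63.4 to 94.3) and for Gm15419, opposite Col4a2 (123, others 63.4 to 77.6). Its sums were 283 CPM for fibrillar genes (others 107 to 140), 158 for FACIT genes (others 82.4 to 96.0) and 696 for all collagen genes (others 373 to 429). PDGFB tumor 5 stood high for Col1a2 (14.4 CPM, others 1.55 to 3.25) and for the transmembrane collagens together (4.81 CPM, others 1.52 to 1.63, which is 3 reads against 1 in each other PDGFB tumor). PDGFB tumor 4 stood high for Col5a2 (7.92 CPM, others 0 to 1.63), RAS tumor 3 for Col19a1 (14.5 CPM, others 0 to 1.67) and RAS tumor 1 for Col7a1, the chain of anchoring fibrils (18.5 CPM, others 5.02 to 8.78).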

How the results depend on the processing

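The counts of collagen genes higher in RAS tumors than in normal brain and lower in PDGFB than in RAS tumors stayed within 1.5 times their value under every alternative run. Leaving out 1 library gave 11 to 17 and 8 to 14. The number of collagen genes tested rose from 17 to 42 with no filter and to 36 with the looser one. A steady count is there a smaller share of the genes tested. The count higher in PDGFB tumors than in normal brain was 5 to 7 without 1 library, and 3 among genes with no exon on the other strand, a fit that tests fewer genes. The count lower there, 1, became 3 with no filter, 2 with the looser one, 0 with the 2 groups alone and 0 to 1 without 1 library. The count lower in RAS tumors than in normal brain, 1, became 0 with library totals and 0 with the 2 groups alone. It was 4 with no filter, 3 with the looser one, 2 with limma-voom and 0 to 2 without 1 library. The counts of 0 come from edgeR. In the main edgeR fit, 1 collagen gene was lower at an unadjusted p under 0.05 in each comparison with normal brain. Such counts are not given for the fits with a count of 0. The count higher in PDGFB than in RAS tumors, 3, was 1 to 3 without 1 library. Same-numbered tumors did not deviate together (correlations −0.128 to 0.139), so their numbers are not a pairing; with the replicate number as a block, a fit over the tumors that tests 12 collagen genes and not Col19a1, the count was 1 and 8 were lower, with Col9a3 at an adjusted p of 0.0648. Some changes near 0 that did not pass turned sign, cause not tested. In PDGFB tumors over normal brain, Col1a1 ranged from −0.48 to 4.48 and Col1a2 from −0.44 to 1.21 without 1 library; Sparc was −0.01 with limma-voom and −0.16 to 0.26 without 1 library; Tgm2 was 0.15 with library totals, 0.05 with no or the looser filter and −0.89 to 0.29 without 1 library; Mrc2 was −0.23 with limma-voom and −0.64 to 1.03 without 1 library. In RAS tumors over normal brain, Col9a3 was −0.35 with limma-voom and −0.09 to 0.85 without 1 library, and Tcfl5 −0.75 to 0.24 without 1 library. Col4a1 in PDGFB over RAS tumors was −0.01 to 0.35 without 1 library. The 27 collagen genes with 68 or fewer reads were left out by the filter. Without it 11 of them were called in at least 1 comparison, a count with no share of all genes beside it.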

Other observations

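Without the low-count filter, 11 of the 27 collagen genes left out above passed edgeR's quasi-likelihood test in at least 1 comparison. Against normal brain, 2 were lower in PDGFB tumors, and 6 were higher and 3 lower in RAS tumors. In PDGFB against RAS tumors, 1 was higher and 5 were lower. The share of all genes called in that fit is not given here, so these counts are not read as a trait of collagens. Col8a1, a collagen of vessel walls, was higher in RAS tumors than in the normal brains (fitted log2 fold change 3.68, adjusted p = 0.000152) and lower in PDGFB than in RAS tumors (−2.31, adjusted p = 0.000843). Col6a3, the third type VI chain, was lower in PDGFB than in RAS tumors (−2.51, adjusted p = 0.00245), as was Col7a1, the anchoring fibril collagen (−2.23, adjusted p = 0.0405). Col23a1, a transmembrane collagen, was lower there too (−2.91, adjusted p = 0.00154). Col9a2 was higher in PDGFB than in RAS tumors (4.38, adjusted p = 0.0065), which held no read of it, and lower in RAS tumors than in normal brain (−5.39, adjusted p = 0.00018). Col25a1, a transmembrane collagen, had 2 reads in the PDGFB tumors, 1 in the RAS tumors and 11 in the normal brains, and Col8a2 had 0, 0 and 5. Both were lower than in normal brain in PDGFB tumors (−3.01 and −3.97, adjusted p = 0.0484 and 0.0444) and in RAS tumors (−3.65 and −3.97, adjusted p = 0.0156 and 0.0374). These values rest on few reads, and the fitted size of a gene with no read in a group depends on the prior count. RAS tumor 5 had the most Col1a1, Col1a2, Col3a1, Col6a1 and Col6a2 reads and no Col11a1 read, and PDGFB tumor 2, with 164 Col11a1 reads, had 1 read each of Col1a2, Col3a1 and Col5a2.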
